A study of Rattus norvegicus with 50 samples.

Results

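The 6 genes described here are Spp1, Mmp12, Gpnmb, Fabp5, Apoe and Lilrb4, which are known together from macrophages that have taken up lipid and debris. They are 6 of the 13438 genes measured on 50 arrays. The 6 were chosen by their high values at the highest concentration after 4 weeks against the controls of that time. Contrasts that use the exposed arrays of that choice are therefore given for them as values with no test. Its control arrays also serve other contrasts, whose p values are printed although such a choice favours genes low in those controls. How far this enters those p values was not tested. The arrays hold RNA of distal airway and alveolar tissue from the right caudal lung lobe of male Fischer 344 rats, aged about 7 to 8 weeks on receipt. The rats had breathed nickel subsulfide (Ni3S2), a poorly soluble nickel compound, as an aerosol for 6 hours a day on 5 days of each week. There were 5 groups at 1 week, namely controls at 0 mg/m3 and exposures to 0.04 mg/m3, 0.08 mg/m3, 0.15 mg/m3 and 0.60 mg/m3, and the same 5 at 4 weeks, with 5 arrays of 1 animal each in all 10 groups (n = 5 throughout). The animals on the arrays were those with the best RNA among the 8 of each group kept for expression. The surfactant protein gene Sftpc, the alveolar type 1 cell gene Ager and the club cell gene Scgb1a1 were at 13.28 or more, 10.48 or more and 13.44 or more on the log2 scale in every array, so the epithelium named by the labels was present.

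Macrophages clear particles, surfactant and dying cells from the lung, and those that store lipid express a shared set of genes for matrix breakdown, lysosomes and fat transport. Osteopontin, the product of Spp1, is a secreted ligand of integrins and Cd44 that attracts and holds macrophages. Mmp12 is the macrophage elastase, Gpnmb a membrane glycoprotein of lysosome-rich macrophages, Fabp5 a cytosolic carrier of fatty acids, Apoe the apolipoprotein that takes cholesterol out of macrophages, and Lilrb4 an inhibitory receptor of myeloid cells for which, in humans, APOE is a known ligand.

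Each gene had exactly 1 probe set carrying its symbol. In the rat assembly GRCr8, RefSeq places Spp1 at chr14:5613569-5620695, Mmp12 at chr8:12866652-12876554, Gpnmb at chr4:79341128-79362366, Fabp5 at chr2:93672451-93676186, Apoe at chr1:88481889-88485816 and Lilrb4 at chr1:78847685-78853294. RefSeq also lists rat pseudogenes of Fabp5 and of Lilrb4, and whether the probes separate them from the genes was not tested. Intensities of different probe sets are not comparable, so levels are compared within a gene only.

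Start regions are shown for Mmp12, Gpnmb and Spp1, the secreted protease, the membrane protein and the secreted ligand, because Mmp12 and Gpnmb share a motif at the same distance from the start that the Spp1 window lacks. The 250 bases before the transcript start are printed 5′ to 3′ on the gene's strand, from RefSeq (GRCr8). They are chr8:12866402-12866651 (plus strand) for Mmp12, chr4:79340878-79341127 (plus strand) for Gpnmb and chr14:5619805-5620054 (minus strand) for Spp1. Capitals mark matches to the AP-1 motif TGANTCA or the MITF and TFE motif TCANNTGA.
Mmp12: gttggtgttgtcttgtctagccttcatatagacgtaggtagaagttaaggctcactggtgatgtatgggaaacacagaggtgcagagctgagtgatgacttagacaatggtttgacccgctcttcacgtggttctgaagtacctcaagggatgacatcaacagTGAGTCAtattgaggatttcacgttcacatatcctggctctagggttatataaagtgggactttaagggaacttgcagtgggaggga
Gpnmb: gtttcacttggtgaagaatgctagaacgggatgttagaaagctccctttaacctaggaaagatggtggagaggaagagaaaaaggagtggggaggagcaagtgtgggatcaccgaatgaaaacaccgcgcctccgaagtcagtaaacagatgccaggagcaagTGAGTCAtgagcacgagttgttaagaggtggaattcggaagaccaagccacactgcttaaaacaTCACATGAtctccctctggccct
Spp1: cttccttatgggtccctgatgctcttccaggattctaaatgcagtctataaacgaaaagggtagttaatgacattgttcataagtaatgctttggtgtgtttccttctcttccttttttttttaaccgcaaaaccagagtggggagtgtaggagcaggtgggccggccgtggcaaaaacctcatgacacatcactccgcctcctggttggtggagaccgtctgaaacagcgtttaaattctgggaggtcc
In both Mmp12 and Gpnmb the letters TGAGTCA began 87 bases before the start, and in Gpnmb TCACATGA began 23 bases before it. The windows of Spp1, Apoe and Lilrb4 held neither motif. The Spp1 window lies inside the gene's RefSeq span, before an internal start, and the bases before the outer 5′ end of that span were not searched. Among 33469 rat start regions reaching from 250 bases before to 50 bases after the start, 7.33% held TGANTCA and 7.76% held TCANNTGA. Both strands were searched, and the 2 matches of Gpnmb did not overlap. The other motifs searched were ACGTG (HIF, in 19.3% of regions), ACCNCA (RUNX, 47.1%), GAGGAA (PU.1, 27.6%), the NF-kB motif (1.53%) and TATAAA (bound by TBP, 14.2%). Of these, Mmp12 held TATAAA 39 bases before the start, the RUNX letters 110 bases before it and the HIF letters from 125 bases before it. Spp1 held RUNX letters 126 and 73 bases before the start and TATAAA 204 bases before it, and Gpnmb held GAGGAA 181 bases before it. The motifs were chosen with these sequences in view, and a match is a string of letters, not a bound site.

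Over all genes, a pair of groups at 1 week was set off from the rest, the controls and the lowest concentration, and this touches every 1-week change given here. On the first principal component these averaged -76.5 ± 9.73 at 0.04 mg/m3 and -58.0 ± 12.2 in controls (SD, n = 5 each), while the 4-week groups averaged between 20.4 and 38.2. The 1-week 0.08 mg/m3 arrays lay between and were spread widely, at -27.1 ± 26.5. Each 1-week change is therefore also given against the 4-week controls. Changes are log2 differences ± the standard error of the limma fit, and adjusted p values are limma's after Benjamini-Hochberg adjustment over all 13438 genes, with a call at an adjusted p under 0.05. Over all genes the median change was within 0.0647 of 0 in each comparison with controls of the same time. Bulk tissue was measured, so more cells of a type and more RNA per cell cannot be told apart.

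Among the secreted products, Spp1 had the largest distance of any of the 13438 genes between its lowest and highest group mean, 5.31 on the log2 scale. At 4 weeks it measured 9.56, 9.42, 10.06, 9.23 and 9.73 in the 0.60 mg/m3 arrays, against 5.24, 5.14, 4.58, 5.22 and 5.04 in the controls. No array of one group came near the other, and the difference of 4.56 ± 0.30, or 23.5-fold, was larger than that of every other gene. Those 0.60 mg/m3 arrays, the highest group of Spp1, chose the gene, so nothing is read from either rank. In the 0.15 mg/m3 arrays Spp1 measured 7.20, 7.37, 7.59, 6.47 and 7.14, again with all 5 arrays above all 5 controls. That rise of 2.11 ± 0.30 passed the test (adjusted p = 3.99e-06) and was exceeded in size by 0.0446% of genes. The 0.08 mg/m3 arrays, at 5.46, 5.43, 5.48, 6.05 and 5.42, were all above the highest control as well, yet the difference of 0.52 ± 0.30 did not pass (adjusted p = 0.299). Of those at 0.04 mg/m3, 3 of 5 were above the highest control, with a difference of 0.27 ± 0.30 (adjusted p = 0.615).

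Spp1 was already high after 1 week. It measured 8.13, 7.97, 7.51, 7.13 and 7.91 at 0.60 mg/m3 and 5.57, 7.46, 7.77, 7.11 and 7.07 at 0.15 mg/m3, against 4.55, 4.43, 4.09, 4.38 and 4.56 in the 1-week controls. Every array of both exposed groups lay above every control, and replicate 1 of 0.15 mg/m3 was the lowest of the 10. The rise was 3.33 ± 0.30 (adjusted p = 5.69e-13) at 0.60 mg/m3 and 2.59 ± 0.30 (adjusted p = 3.21e-10) at 0.15 mg/m3. Against the 4-week controls the same arrays were higher by 2.68 ± 0.30 (adjusted p = 1.31e-09) and 1.95 ± 0.30 (adjusted p = 1.71e-06), so both rises were called with either set of controls. The 5 animals split at 0.08 mg/m3: 4.03, 4.06, 5.55, 5.87 and 5.09, with replicates 1 and 2 at control level and replicates 3 to 5 above all controls. Their mean difference of 0.52 ± 0.30 did not pass (adjusted p = 0.158), but did when replicate 1 (0.74) or replicate 2 (0.73) was left out. Against the 4-week controls Spp1 differed by -0.12 ± 0.30 at 0.08 mg/m3 (adjusted p = 0.738).

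Mmp12, the elastase, followed Spp1 closely at 4 weeks but was the only gene of the 6 besides Apoe whose arrays were all above the controls at the lowest concentration. It measured 10.47, 10.21, 10.94, 10.14 and 10.40 at 0.60 mg/m3 and 9.05, 8.86, 8.94, 8.88 and 8.39 at 0.15 mg/m3, against 6.79, 6.39, 6.31, 6.55 and 6.79 in the 4-week controls. The 3 groups did not overlap. The difference was 3.87 ± 0.27 (14.6-fold) at 0.60 mg/m3, and the rise at 0.15 mg/m3 was 2.26 ± 0.27 (adjusted p = 1.26e-07). At 0.04 mg/m3 the arrays measured 7.13, 7.35, 7.48, 7.39 and 7.20, all above the highest control of 6.79, with a difference of 0.74 ± 0.27 that fell short of the threshold (adjusted p = 0.0636). At 0.08 mg/m3 they measured 6.59, 7.31, 7.45, 7.53 and 7.41, with replicate 1 among the controls and a difference of 0.69 ± 0.27 (adjusted p = 0.106). Fitted on the 25 arrays of 4 weeks alone, both differences passed (adjusted p = 0.00304 at 0.04 mg/m3 and 0.00586 at 0.08 mg/m3), and without replicate 1 the difference at 0.08 mg/m3 was 0.86 and passed too. Over 21 alternative settings the adjusted p of Mmp12 ran between 0.000163 and 0.141 at 0.04 mg/m3 and between 0.000889 and 0.233 at 0.08 mg/m3.

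After 1 week Mmp12 measured 8.06, 8.23, 8.01, 7.57 and 8.29 at 0.60 mg/m3 and 7.14, 7.87, 8.13, 7.72 and 7.63 at 0.15 mg/m3, against 6.55, 6.08, 6.60, 5.61 and 5.50 in the 1-week controls. The groups did not overlap with the controls, and the rises were 1.97 ± 0.27 (adjusted p = 2.56e-08) and 1.63 ± 0.27 (adjusted p = 1.08e-06). They were called against the 4-week controls too, at 1.47 ± 0.27 (adjusted p = 1.99e-05) and 1.13 ± 0.27 (adjusted p = 0.00084). The animals split again at 0.08 mg/m3, at 5.32, 5.86, 7.24, 7.72 and 7.26, where replicates 1 and 2, the ones with low Spp1, were also the ones with low Mmp12. The difference of 0.61 ± 0.27 did not pass (adjusted p = 0.0598), and passed without replicate 1 (0.95) or replicate 2 (0.82) of that group and without replicate 1 (0.73) or 3 (0.75) of the controls. Against the 4-week controls Mmp12 differed by 0.12 ± 0.27 at 0.08 mg/m3 (adjusted p = 0.731). These splits follow the spread of the 1-week 0.08 mg/m3 arrays over all genes, and the part of that spread in them was not tested.

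**Figure D1:**
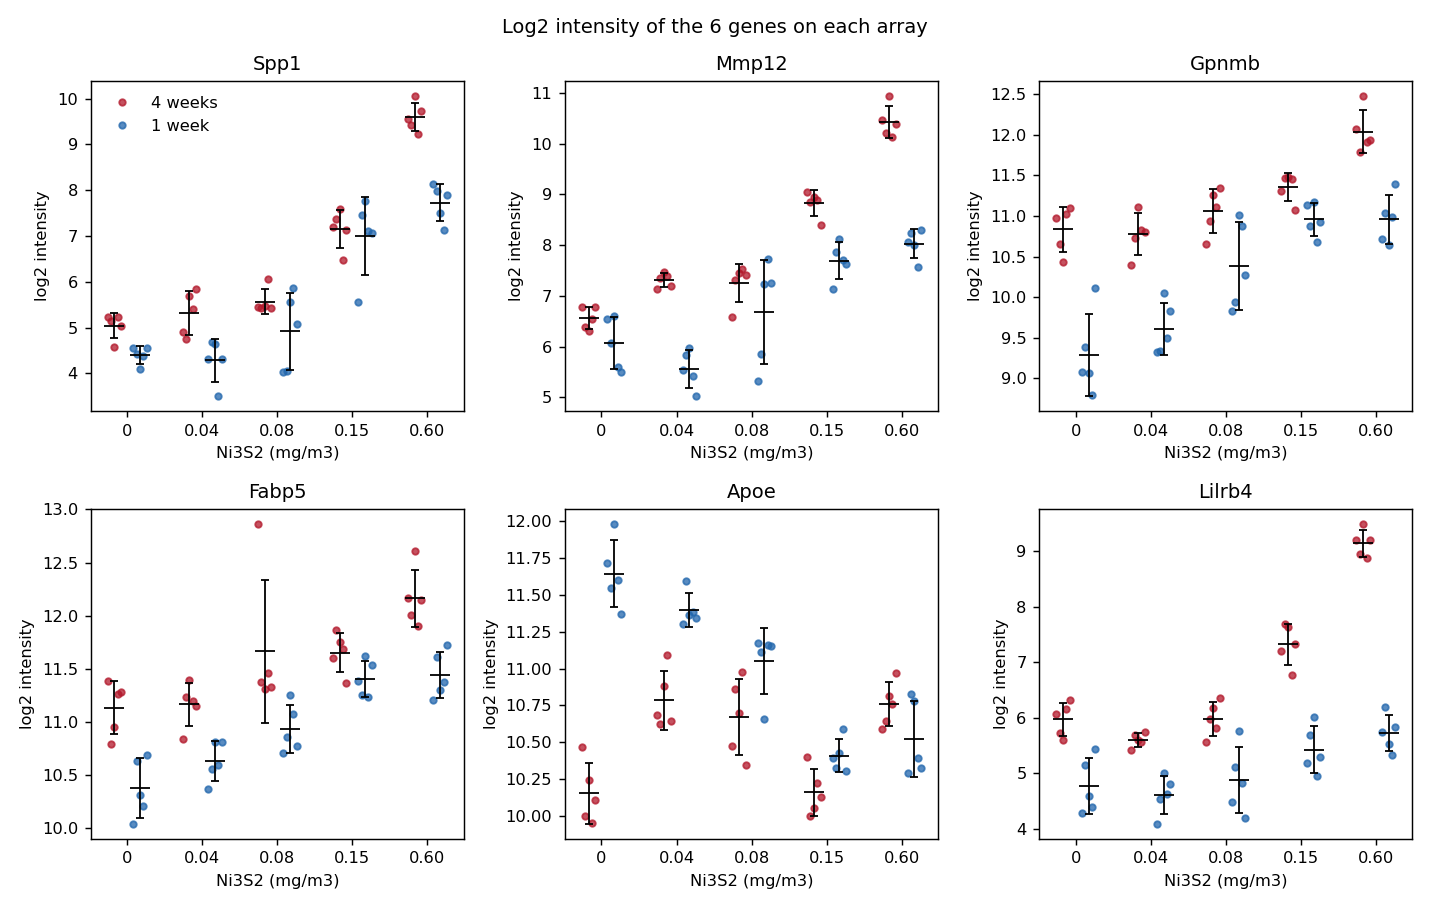
Log2 intensity (vertical axis of each panel) of the 6 genes on each of the 50 arrays, by Ni3S2 concentration in mg/m3 (horizontal axis), with 4-week animals in red to the left of 1-week animals in blue. Points are animals, and the bars give the mean and SD of 5; Spp1, Mmp12 and Lilrb4 climb to 9.60, 10.43 and 9.14 at 0.60 mg/m3 after 4 weeks, while Apoe is highest in the 1-week controls at 11.64.

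Lilrb4, the inhibitory receptor, had its highest levels at 4 weeks, while every 1-week array was at 6.20 or lower. It measured 9.20, 8.94, 9.49, 8.88 and 9.20 at 0.60 mg/m3 and 7.21, 7.68, 7.64, 6.77 and 7.32 at 0.15 mg/m3, against 6.07, 5.73, 5.60, 6.15 and 6.32 in the 4-week controls. These groups were clear of each other, with a difference of 3.17 ± 0.23 (8.98-fold) at 0.60 mg/m3 and a rise of 1.35 ± 0.23 (adjusted p = 8.69e-05) at 0.15 mg/m3. At 0.08 and 0.04 mg/m3 it overlapped the controls, with differences of 0.00 ± 0.23 and -0.37 ± 0.23 (adjusted p = 0.994 and 0.299). After 1 week it measured 5.75, 6.20, 5.52, 5.33 and 5.83 at 0.60 mg/m3, against 4.29, 5.14, 4.60, 4.38 and 5.44 in the 1-week controls. The groups overlapped, although the rise of 0.96 ± 0.23 passed the test (adjusted p = 0.00026), as did that of 0.66 ± 0.23 at 0.15 mg/m3 (adjusted p = 0.00988). The call at 0.15 mg/m3 was lost without replicate 3 of 0.15 mg/m3 (0.51). Against the 4-week controls the 1-week exposed arrays were not higher: the difference was -0.25 ± 0.23 (adjusted p = 0.391) at 0.60 mg/m3, and at 0.15 mg/m3 it was -0.55 ± 0.23, a call in the opposite direction (adjusted p = 0.0469).

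Gpnmb, the lysosome-linked membrane protein, and Fabp5, the fatty acid carrier, spanned less. At 4 weeks Gpnmb measured 12.07, 11.79, 12.48, 11.91 and 11.94 at 0.60 mg/m3, against 10.97, 10.65, 10.44, 11.02 and 11.10 in controls, a difference of 1.20 ± 0.20. Fabp5 measured 12.17, 12.01, 12.61, 11.91 and 12.14 at 0.60 mg/m3, against 11.39, 10.79, 10.95, 11.26 and 11.28 in controls, a difference of 1.03 ± 0.18. Exposed and control arrays were apart for both genes, by a narrower margin than for Spp1, Mmp12 and Lilrb4. The 0.15 mg/m3 arrays of both differed by 0.52 (SE 0.20 for Gpnmb and 0.18 for Fabp5), overlapped the controls and did not pass (adjusted p = 0.176 and 0.12). Fitted with only those 10 arrays, each did pass (adjusted p = 0.0242 and 0.02). Over 21 alternative settings the adjusted p ran between 0.00869 and 0.39 for Gpnmb and between 0.00154 and 0.284 for Fabp5. Neither passed at 0.08 mg/m3, with 0.23 ± 0.20 for Gpnmb (adjusted p = 0.538) and 0.53 ± 0.18 for Fabp5 (adjusted p = 0.059), the second with replicate 1 at 12.87 while its other 4 arrays were at 11.31 to 11.46. Fabp5 was called at 0.08 mg/m3 when control replicate 1 (0.59), or replicate 3 (0.62) or 5 (0.62) of the exposed group, was left out. Each of those fits kept the exposed array at 12.87, and the group medians were 11.38 at 0.08 mg/m3 and 11.26 in controls. Over 21 alternative settings this adjusted p ran between 0.0253 and 0.32. At 0.04 mg/m3 the differences were -0.06 ± 0.20 and 0.03 ± 0.18 (adjusted p = 0.884 and 0.938).

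After 1 week Gpnmb measured 10.72, 11.04, 10.64, 10.99 and 11.39 at 0.60 mg/m3, against 9.08, 9.39, 9.07, 8.80 and 10.11 in the 1-week controls. Fabp5 measured 11.21, 11.61, 11.30, 11.38 and 11.72 at 0.60 mg/m3, against 10.04, 10.64, 10.32, 10.21 and 10.69 in those controls. Neither gene's groups overlapped, and the rises were 1.67 ± 0.20 for Gpnmb (adjusted p = 9.4e-10) and 1.06 ± 0.18 for Fabp5 (adjusted p = 1.82e-06). The rises at 0.15 mg/m3 were of like size, at 1.67 ± 0.20 and 1.03 ± 0.18 (adjusted p = 7.88e-10 and 3.16e-06), and both were called at 0.08 mg/m3, at 1.10 ± 0.20 and 0.55 ± 0.18 (adjusted p = 1.74e-05 and 0.0106). None of this was seen against the 4-week controls, where Gpnmb differed by 0.12 ± 0.20 (adjusted p = 0.654) and Fabp5 by 0.31 ± 0.18 (adjusted p = 0.163) at 0.60 mg/m3. At 0.15 mg/m3 Gpnmb differed from them by 0.12 ± 0.20 (adjusted p = 0.663) and Fabp5 by 0.27 ± 0.18 (adjusted p = 0.235). At 0.08 mg/m3 the differences from the 4-week controls were -0.45 ± 0.20 for Gpnmb (adjusted p = 0.0482, lower) and -0.20 ± 0.18 for Fabp5 (adjusted p = 0.343).

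Apoe, the cholesterol carrier, did not follow the other 5. At 4 weeks it measured 10.69, 10.63, 10.88, 11.09 and 10.64 at 0.04 mg/m3, 10.48, 10.86, 10.70, 10.98 and 10.35 at 0.08 mg/m3, 10.40, 10.0005, 10.05, 10.22 and 10.13 at 0.15 mg/m3 and 10.59, 10.64, 10.81, 10.76 and 10.97 at 0.60 mg/m3, against 10.47, 10.0026, 10.25, 9.95 and 10.11 in the controls. The 0.04 and 0.60 mg/m3 arrays were all above the controls, most of the 0.08 mg/m3 arrays were, and the 0.15 mg/m3 arrays coincided with them. It rose by 0.63 ± 0.12 at 0.04 mg/m3 (adjusted p = 0.000498) and by 0.52 ± 0.12 at 0.08 mg/m3 (adjusted p = 0.00519). The difference was 0.01 ± 0.12 at 0.15 mg/m3 (adjusted p = 0.994), and at 0.60 mg/m3 it was 0.60 ± 0.12. Marker lists of other tissue moved with the first 2 of these. The mean level of 7 heart and skeletal muscle markers was 9.50 at 0.04 mg/m3, 9.15 at 0.08 mg/m3, 7.68 at 0.15 mg/m3 and 7.51 at 0.60 mg/m3, against 7.42 in the 4-week controls. Its lowest array at 0.04 mg/m3 (8.97) and at 0.08 mg/m3 (8.23) lay above its highest control (7.84). The mean of 6 B and plasma cell markers was 7.63 at 0.04 mg/m3, 7.35 at 0.08 mg/m3, 6.59 at 0.15 mg/m3 and 7.38 at 0.60 mg/m3, against 6.53 in those controls. The mean of 11 T cell markers was 6.71, 6.34, 6.07 and 6.46 at the same concentrations, against 5.88 in the controls, so both lists were lowest in the control and 0.15 mg/m3 arrays, as Apoe was. The mean of 11 fibroblast and smooth muscle markers was 10.43 at 0.04 mg/m3, 10.30 at 0.08 mg/m3, 9.63 at 0.15 mg/m3 and 9.64 at 0.60 mg/m3, against 9.66 in the controls. The lowest arrays at 0.04 mg/m3 (10.17) and 0.08 mg/m3 (10.11) lay above the highest control (9.78). The mean of 7 adipocyte markers was 7.69, 7.89, 7.11 and 6.77 at the same concentrations, against 6.91 in the controls, with overlap at each of them. The part of these tissues in the Apoe values was not tested.

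After 1 week Apoe was below its controls. It measured 10.29, 10.83, 10.78, 10.39 and 10.32 at 0.60 mg/m3 and 10.40, 10.33, 10.43, 10.59 and 10.31 at 0.15 mg/m3, against 11.71, 11.55, 11.98, 11.60 and 11.37 in the 1-week controls. All exposed arrays lay below all controls, with falls of 1.12 ± 0.12 (adjusted p = 8.08e-11) and 1.23 ± 0.12 (adjusted p = 5.35e-12). It fell by 0.59 ± 0.12 at 0.08 mg/m3 (adjusted p = 9.88e-05), also without overlap. Against the 4-week controls, whose Apoe was lower than that of the 1-week controls by 1.49 on the log2 scale, the same groups lay higher: by 0.37 ± 0.12 at 0.60 mg/m3 (adjusted p = 0.0114), 0.25 ± 0.12 at 0.15 mg/m3 (adjusted p = 0.0911) and 0.90 ± 0.12 at 0.08 mg/m3 (adjusted p = 3.32e-08). The direction of Apoe after 1 week thus depended on which controls were used.

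Counted over the 6 genes at 4 weeks, 3 rose and 0 fell at 0.15 mg/m3 (Spp1, Mmp12 and Lilrb4), where 1.92% of all genes were called higher and 1.58% lower. Those 3, and no other of the 6, also had all exposed arrays above all controls, as 4.61% of genes did. Apoe alone was called at 0.08 mg/m3 and at 0.04 mg/m3, against backgrounds of 5.67% of genes higher and 2.87% lower at 0.08 mg/m3, and 8.29% and 4.61% at 0.04 mg/m3. The genes with all exposed arrays above all controls were Spp1 at 0.08 mg/m3, where 3.99% of genes were, and Mmp12 and Apoe at 0.04 mg/m3, where 12.3% were. At 0.60 mg/m3 all 6 lay above the controls without overlap, as did 10.5% of all genes, and 9.47% of genes were called higher and 7.9% lower there. That comparison chose the genes, so nothing is read from its count. All 4 concentrations share the 5 control arrays of their time, and the choice of the genes used those controls too. The median difference of the 6 was 0.15 at 0.04 mg/m3, 0.52 at 0.08 mg/m3, 0.93 at 0.15 mg/m3 and 2.18 at 0.60 mg/m3. The medians over all genes were between -0.01 and 0.02.

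At 1 week all 6 were called at 0.60 mg/m3, 5 higher and Apoe lower, but 32.8% of all genes were called higher and 32.3% lower there. Of the 6, 4 lay wholly above the controls and Apoe wholly below, as 27.3% and 26.1% of genes did. The same 5 and 1 were called at 0.15 mg/m3, where 33.8% were higher and 33.7% lower, and the same 4 and 1 did not overlap the controls, as was so for 28% and 27.3% of genes. Gpnmb and Fabp5 were called higher and Apoe lower at 0.08 mg/m3, against 25.1% and 23.5%, and Fabp5 (above) and Apoe (below) did not overlap, against 8.89% and 4.56%. At 0.04 mg/m3 limma called 0 of the 6, 0 had an unadjusted p under 0.05, and the lowest adjusted p was 0.119, although 15.1% of genes were called higher and 11.8% lower. Without control replicate 5, Gpnmb was called there (0.53). Against the 4-week controls, 33.3% of genes were called higher and 16.1% lower at 0.60 mg/m3, and Spp1, Mmp12 and Apoe were the 3 of the 6 among the higher. At 0.15 mg/m3 Spp1 and Mmp12 were higher and Lilrb4 lower, where 29% and 13.6% of genes were. At 0.08 mg/m3 Apoe was higher and Lilrb4 (-1.10 ± 0.23, adjusted p = 4.46e-05) and Gpnmb lower, where 38.4% and 26.3% were. At 0.04 mg/m3 Apoe was higher and the other 5 lower, by between 0.51 and 1.36 on the log2 scale, where 45.6% and 36% of genes were called.

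**Figure D2:**
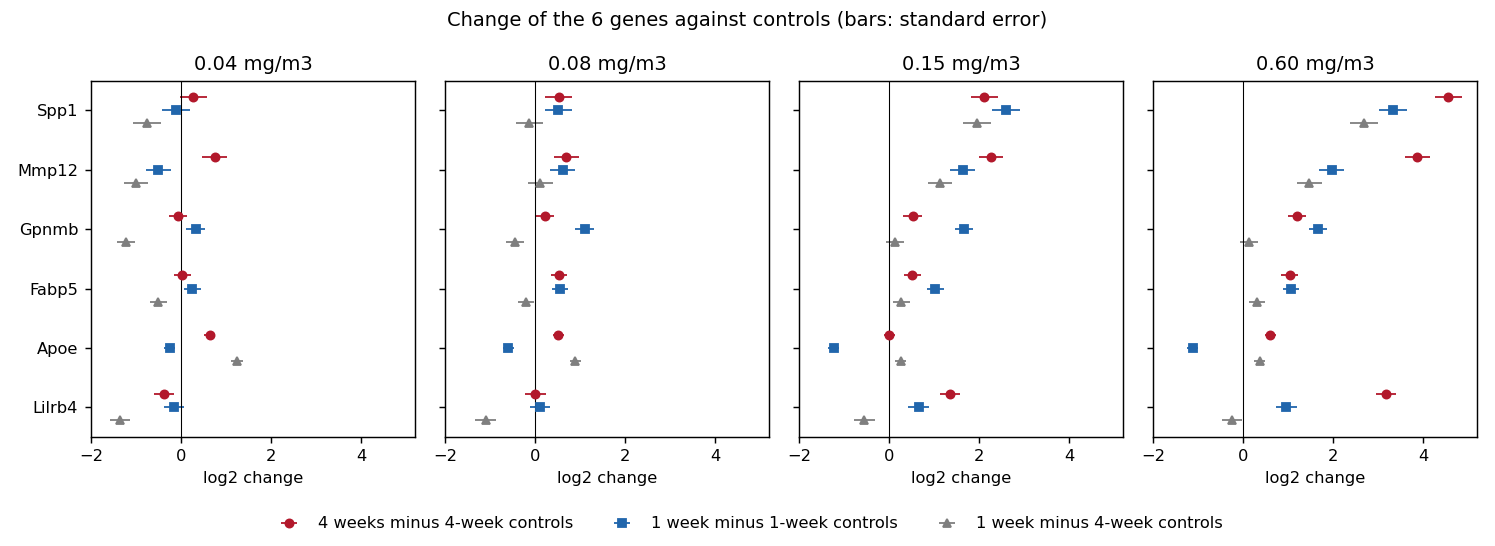
Log2 change (horizontal axis) of each of the 6 genes (rows) at each exposure concentration in mg/m3 (panels), with bars of 1 standard error of the limma fit, n = 5 arrays a group. Red circles are 4 weeks minus 4-week controls, blue squares 1 week minus 1-week controls, and grey triangles 1 week minus 4-week controls; at 0.60 mg/m3 blue and grey stay close for Spp1 (3.33 and 2.68) and lie on opposite sides of 0 for Apoe (-1.12 and 0.37).

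Neighbouring concentrations show where the levels stepped up. At 4 weeks 0.08 against 0.04 mg/m3 gave 0 calls by limma among the 6, with 1 unadjusted p under 0.05 (Fabp5 at 0.50 ± 0.18), where 0.00744% of genes were called higher and 0% lower, so the order of these groups is not settled for any of the 6. Between 0.15 and 0.08 mg/m3 Spp1 was higher by 1.59 ± 0.30 (adjusted p = 0.000313), Mmp12 by 1.57 ± 0.27 (adjusted p = 0.000117) and Lilrb4 by 1.34 ± 0.23 (adjusted p = 7.8e-05), each without overlap, as 8.3% of genes were above. The background was 8.05% of genes called higher and 10.5% lower, and Apoe was among the lower, at -0.51 ± 0.12 (adjusted p = 0.00307). Gpnmb and Fabp5 differed by 0.30 ± 0.20 and -0.01 ± 0.18 in that step (adjusted p = 0.32 and 0.972). Between 0.60 and 0.15 mg/m3 all 6 were higher without overlap, by 2.45 for Spp1, 1.82 for Lilrb4, 1.60 for Mmp12, 0.68 for Gpnmb, 0.59 for Apoe and 0.51 for Fabp5. That step uses the arrays that chose the genes and has no test here. In it 4.27% of all genes were above without overlap, 1.91% were called higher and 0.953% lower.

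At 1 week all 6 genes were called between 0.15 and 0.08 mg/m3. Compared with 0.08 mg/m3, the 0.15 mg/m3 arrays were higher by 2.07 ± 0.30 for Spp1 (adjusted p = 3.82e-06) and 1.02 ± 0.27 for Mmp12 (adjusted p = 0.00243). Gpnmb (0.57 ± 0.20), Lilrb4 (0.55 ± 0.23) and Fabp5 (0.47 ± 0.18) were called higher and Apoe lower (-0.64 ± 0.12), where 23.1% and 23.6% of all genes were. Apoe alone did not overlap in that step, below, as 5.69% of genes. The Mmp12 call was lost with array weights, where the step was 0.41 (adjusted p = 0.142), and when only these 2 groups were fitted (adjusted p = 0.091), with adjusted p values of Mmp12 between 0.000196 and 0.142 over 21 alternative settings. Without 0.08 mg/m3 replicate 1 the calls of Gpnmb (0.43), Lilrb4 (0.45) and Fabp5 (0.42) were lost, and leaving out other single arrays of these groups also ended 1 or 2 of them. Fabp5 was lost without 0.08 mg/m3 replicate 2 (0.46) or 5 (0.43) and without 0.15 mg/m3 replicate 3 (0.42) or 5 (0.44). Lilrb4 was lost without 0.08 mg/m3 replicate 4 (0.54) or 5 (0.38) and without 0.15 mg/m3 replicate 2 (0.48) or 3 (0.41), and Gpnmb without 0.08 mg/m3 replicate 2 (0.46). In 0.08 against 0.04 mg/m3, Mmp12 (1.12 ± 0.27, adjusted p = 0.00047) and Gpnmb (0.78 ± 0.20, adjusted p = 0.000897) were higher and Apoe lower (-0.34 ± 0.12, adjusted p = 0.0134), with a background of 29.3% higher and 33.5% lower. Apoe did not overlap in that step either, as 10.6% of genes were below. Spp1 differed by 0.63 ± 0.30 (adjusted p = 0.0651), and was called without 0.04 mg/m3 replicate 2 (0.73) or 3 (0.72) or 0.08 mg/m3 replicate 1 (0.85) or 2 (0.85). The Apoe call was lost without 0.08 mg/m3 replicate 3 (-0.25). For 0.60 against 0.15 mg/m3 limma called 0 of the 6, with 1 unadjusted p under 0.05, that of Spp1 at 0.74 ± 0.30 (adjusted p = 0.7), and 0.00744% of genes were called in each direction.

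The response at 4 weeks was set against that at 1 week as a difference of the 2 changes, each from its own controls. The 1-week controls, set off over all genes, enter every one of these differences, and their part in them was not tested. At 0.60 mg/m3, where the 4-week change chose the genes and no test is given (27.7% of genes were called positive and 29% negative), the difference was 2.21 for Lilrb4, 1.90 for Mmp12, 1.72 for Apoe, 1.23 for Spp1, -0.03 for Fabp5 and -0.47 for Gpnmb. At 0.15 mg/m3 Apoe was called at 1.24 ± 0.17 (adjusted p = 8.71e-08) and Gpnmb at -1.15 ± 0.28 (adjusted p = 0.00061), where 27.4% of genes were called with a positive and 29.4% with a negative difference. The difference for Lilrb4 was 0.69 ± 0.32 (adjusted p = 0.0631), and it was called without 1-week control replicate 1 (0.81) or 4 (0.79), 4-week control replicate 5 (0.78), 1-week 0.15 mg/m3 replicate 2 (0.76) or 3 (0.84), or 4-week 0.15 mg/m3 replicate 4 (0.83). Spp1 differed by -0.48 ± 0.43 (adjusted p = 0.356), with a 95% interval of -1.34 to 0.38. At 0.08 mg/m3 Apoe (1.11 ± 0.17, adjusted p = 2.98e-06) and Gpnmb (-0.87 ± 0.28, adjusted p = 0.0112) were called again, with 21.4% and 23% of genes. At 0.04 mg/m3 Apoe (0.88 ± 0.17, adjusted p = 0.000521) and Mmp12 (1.25 ± 0.39, adjusted p = 0.0274) were, with 7.22% of genes positive and 4.78% negative. The Mmp12 call was lost without 1-week control replicate 1 (1.13) or 3 (1.11) or 1-week 0.04 mg/m3 replicate 5 (1.11).

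Unexposed lung itself differed between the times. The 4-week controls had more Gpnmb (1.55 ± 0.20, adjusted p = 3.47e-09), Lilrb4 (1.21 ± 0.23, adjusted p = 6.94e-06) and Fabp5 (0.76 ± 0.18, adjusted p = 0.000278) than the 1-week controls, and less Apoe (-1.49 ± 0.12, adjusted p = 1.69e-14). None of these 4 overlapped, nor did Spp1, while 30.8% of genes lay wholly above and 33% wholly below, and 35.2% of all genes were called higher and 38.2% lower. Spp1 (0.64 ± 0.30, adjusted p = 0.0528) and Mmp12 (0.50 ± 0.27, adjusted p = 0.0982) did not pass. Spp1 passed without 4-week control replicate 3 (0.76) and Mmp12 without 1-week control replicate 3 (0.63). Both also passed with quantile normalization and when only these groups were fitted. Over 20 alternative settings the adjusted p ran between 0.000501 and 0.116 for Spp1 and between 0.0419 and 0.266 for Mmp12. Age, time and whatever sets the 1-week controls apart cannot be told apart in this comparison.

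Animals within a group shared levels of some of the 6 genes. Group means were removed, the remaining deviations of each of the 15 gene pairs were correlated, and p values came from 100000 permutations of arrays within groups with Benjamini-Hochberg adjustment over the 15. Gpnmb and Lilrb4 was the pair called at both times, with r = 0.67 (rho = 0.71, adjusted p = 0.0051) over the 25 arrays of 4 weeks and r = 0.66 (rho = 0.62, adjusted p = 0.00855) over the 25 of 1 week. Leaving out the 2 arrays farthest from the median Gpnmb deviation left r at 0.57 and 0.50. Of all other genes, 1.42% at 4 weeks and 6.32% at 1 week had a higher r with Gpnmb than Lilrb4 had, and 0.141% and 2.78% a higher r with Lilrb4 than Gpnmb had. At 4 weeks Mmp12 and Gpnmb had r = 0.83 (rho = 0.78, adjusted p = 0.00045, 0.77 without 2 arrays), with 0.216% of genes higher on either side. Mmp12 with Lilrb4 (r = 0.56, rho = 0.48, adjusted p = 0.047, 0.40 without 2 arrays) and Spp1 with Lilrb4 (r = 0.53, rho = 0.46, adjusted p = 0.0441, 0.48 without 2 arrays) were called as well, but the adjusted p of rho was 0.0931 for both.

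At 1 week the called pairs were others. Gpnmb and Fabp5 had r = 0.84 (rho = 0.85, adjusted p = 0.0003, 0.79 without 2 arrays), Fabp5 and Lilrb4 r = 0.79 (rho = 0.77, adjusted p = 0.0003, 0.73 without 2 arrays), and Spp1 and Mmp12 r = 0.72 (rho = 0.72, adjusted p = 0.00395, 0.67 without 2 arrays). Without the 5 arrays of 0.08 mg/m3 the first 2 were r = 0.83 and 0.79 (adjusted p = 0.0015 and 0.00525), and Spp1 with Mmp12 was r = 0.53 (adjusted p = 0.0611, and 0.0386 for its rho of 0.54), so its call by r ended without the group whose animals split. At 4 weeks Gpnmb with Fabp5 had r = 0.11 (rho = 0.38), with the 0.08 mg/m3 array whose Fabp5 stood at 12.87 among the points. Without the 2 arrays farthest from the median Gpnmb deviation it was r = 0.62, and the difference between the times was not tested. Apoe was in no called pair over all 50 arrays or at either time, and its r with Gpnmb was 0.06 at 4 weeks and -0.51 at 1 week (adjusted p = 0.887 and 0.0881). A main axis of spread within groups over all genes, holding 20.4% of that variance, had r = -0.63 with Gpnmb, -0.46 with Lilrb4, -0.41 with Fabp5, -0.37 with Spp1, -0.35 with Mmp12 and 0.50 with Apoe over the 50 arrays, and its part in the pair correlations was not tested.

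**Figure D3:**
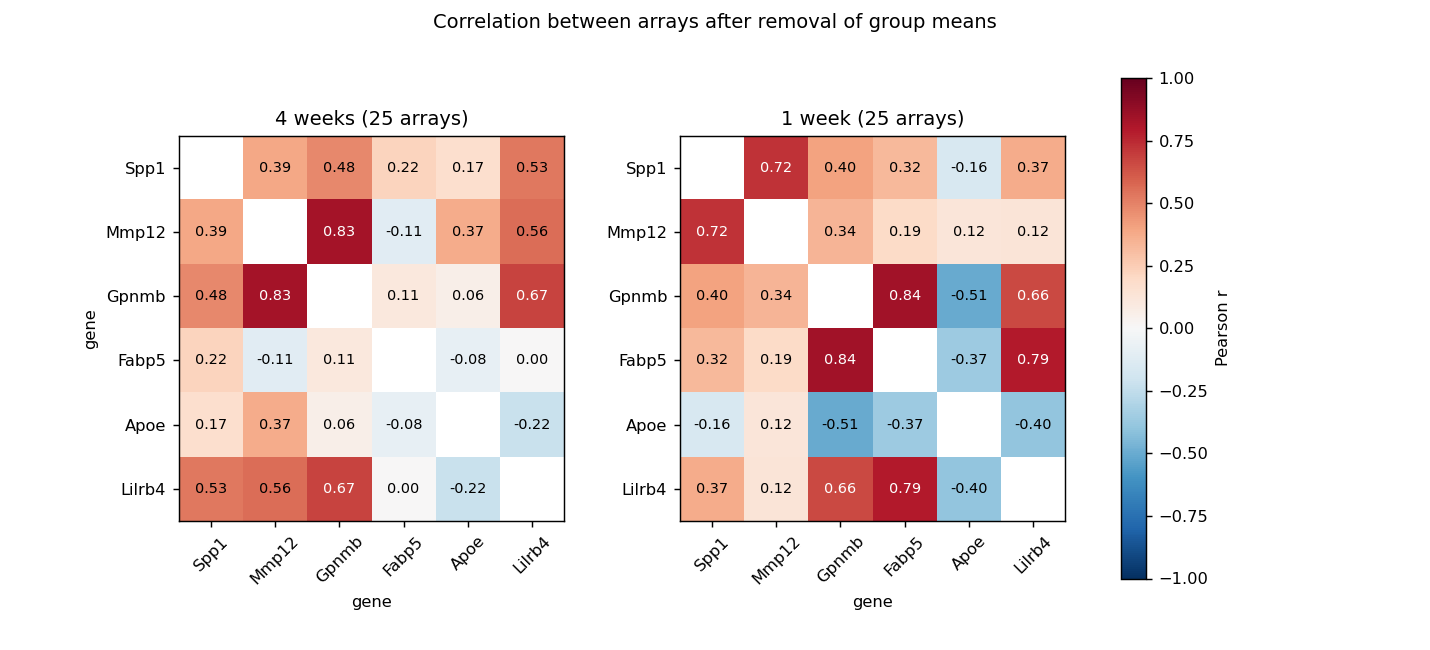
Pearson r (colour, printed in each cell) between the 6 genes over arrays after removal of group means, for 25 arrays at 4 weeks (left) and 25 arrays at 1 week (right). Gpnmb with Lilrb4 is high in both (0.67 and 0.66), Mmp12 with Gpnmb at 4 weeks (0.83) and Gpnmb with Fabp5 at 1 week (0.84), while the Apoe row lies between -0.51 and 0.37.

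Over the 10 group means, Spp1 and Mmp12 had r = 0.96 with each other and Gpnmb and Fabp5 0.98, while Apoe had values between -0.76 and -0.47 with the other 5. Those of Apoe differed by time. They were between -0.99 and -0.90 over the 5 groups of 1 week, and between 0.12 and 0.32 over the 5 of 4 weeks. All these values describe patterns over group means, and the 10 groups share 2 sets of controls. Among the 6850 other genes whose group means spanned at least 1, the nearest to Spp1 were the anion exchanger gene Slc26a4 (r = 0.98), Ms4a6a (0.97), a membrane protein of macrophages, and the SLAM family receptor gene Slamf9 (0.97). Ms4a6a (0.98) and Slamf9 (0.98) were also nearest to Mmp12, with Lcn2 (0.97), which encodes an iron-trapping secreted protein. Slc26a4 averaged 9.56 at 0.60 mg/m3, against 5.62 in controls at 4 weeks. The genes nearest to Gpnmb were Plxna2 (0.99), a semaphorin receptor, Arg1 (0.99), which encodes arginase, and Egfl6 (0.99), a secreted matrix protein. For Fabp5 they were Tiam1 (0.99), an activator of Rac, Plxna2 (0.97) and S100a8 (0.97), a calcium-binding protein of neutrophils and monocytes. Mpeg1 (0.98), a pore-forming protein of macrophages, the chemokine gene Cxcl11 (0.98) and Slc7a11 (0.98), the cystine transporter gene, were nearest to Lilrb4. Those nearest to Apoe were Lat (0.99), an adaptor of T cell receptor signalling, the leukocyte phosphatase gene Ptpn7 (0.98) and Fmnl1 (0.98), a formin of blood cells.

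The wider list of lipid-laden macrophage genes did not move as a block. Of its 46 measured genes outside the 6, 15 rose and 3 fell at 0.60 mg/m3 after 4 weeks, with a median change of 0.15 beside 0.00 over all genes and shares of 9.47% called higher and 7.9% lower. The largest were Rgs1 (1.50 ± 0.16, adjusted p = 5.18e-10), a brake on G protein signalling, Il7r (1.31 ± 0.18, adjusted p = 2.6e-07), a cytokine receptor, Apoc1 (1.26 ± 0.25, adjusted p = 0.00019), an apolipoprotein, and Capg (1.03 ± 0.12, adjusted p = 8.61e-09), an actin-capping protein. A further 5 of the 46 were picked here after their values were seen. They do not stand for the list, in which 15 rose and 3 fell. None of these 5 passed at 0.60 mg/m3 after 4 weeks: the lipid receptor gene Trem2 differed by 0.54 ± 0.23 (adjusted p = 0.107), the lipid droplet coat gene Plin2 by 0.34 ± 0.13 (adjusted p = 0.0805), the scavenger receptor gene Cd36 by -0.08 ± 0.11 (adjusted p = 0.677), the lipase gene Lpl by -0.39 ± 0.15 (adjusted p = 0.0667) and Tyrobp, the signalling adaptor of Trem2, by 0.23 ± 0.10 (adjusted p = 0.0952). At 0.15 mg/m3, 4 of the 46 rose and 0 fell. After 1 week at 0.60 mg/m3 20 rose and 16 fell from the 1-week controls (over all genes 32.8% were higher and 32.3% lower), and 14 rose and 9 fell from the 4-week controls (33.3% and 16.1%). The largest from the 1-week controls were Soat1, the lysosomal protease gene Ctsl (1.22 ± 0.12, adjusted p = 6.77e-12), Il7r (-1.18 ± 0.18, adjusted p = 1.48e-07) and Fabp3. From the 4-week controls Ctsl differed by -0.07 ± 0.12 (adjusted p = 0.663) and Il7r was lower again (-0.66 ± 0.18, adjusted p = 0.00195). Of the 5 picked genes, Plin2 (0.58 ± 0.13, adjusted p = 0.000225) and Lpl (0.55 ± 0.15, adjusted p = 0.00114) rose and Tyrobp fell by 0.48 (adjusted p = 3.09e-05) from the 1-week controls, and Trem2 (-0.32 ± 0.23, adjusted p = 0.24) and Cd36 (0.12 ± 0.11, adjusted p = 0.346) did not pass. From the 4-week controls Lpl (-0.41 ± 0.15, adjusted p = 0.0208) and Cd36 (-0.91 ± 0.11, adjusted p = 5.04e-09) were lower, and Plin2 (-0.03 ± 0.13, adjusted p = 0.886), Tyrobp (0.21 ± 0.10, adjusted p = 0.0746) and Trem2 (0.39 ± 0.23, adjusted p = 0.173) did not pass.

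**Figure D4:**
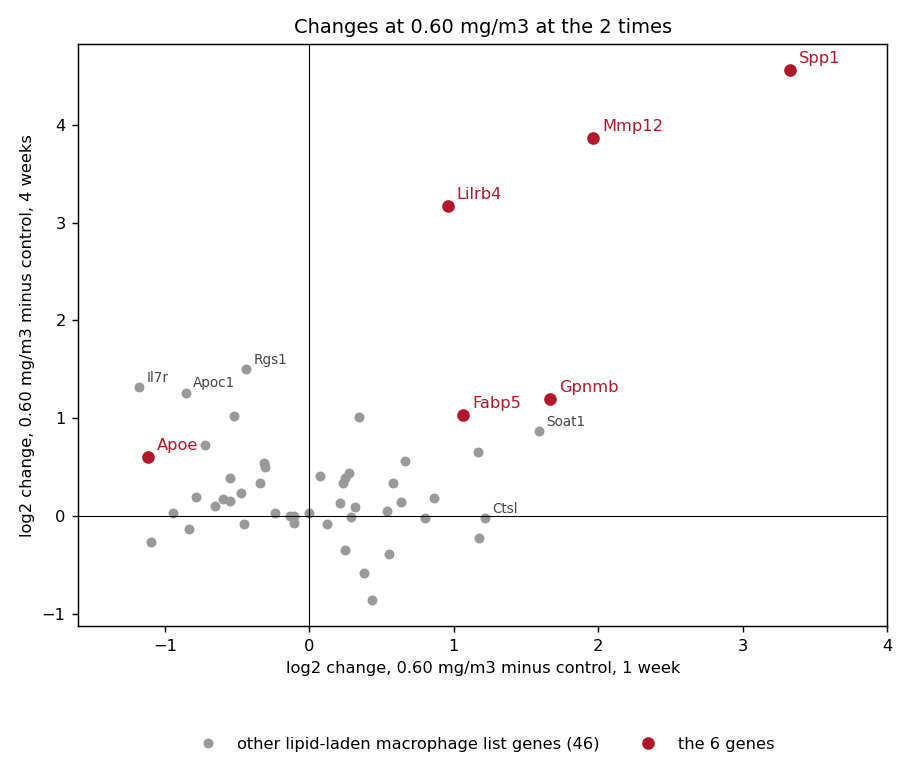
Log2 change at 0.60 mg/m3 after 4 weeks (vertical axis) against that after 1 week (horizontal axis), each from the controls of its time, for the 6 genes (red) and 46 other genes of the lipid-laden macrophage list (grey). Spp1, Mmp12 and Lilrb4 lie above every grey point, the highest of which is Rgs1 at 1.50. The vertical axis is the comparison that chose the 6 genes, so nothing is read from their height on it. Apoe lies among the grey points with a negative 1-week change.

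Partners of the 6 genes, their receptors, inhibitors and relatives, were counted in the same way, against the same shares of all genes (at 4 weeks 9.47% higher and 7.9% lower at 0.60 mg/m3, and 1.92% and 1.58% at 0.15 mg/m3). Among 10 receptors of osteopontin and Gpnmb, Cd44 (0.64 ± 0.13, adjusted p = 0.000379) and the integrin subunit gene Itgav (0.44 ± 0.14, adjusted p = 0.0245) rose and the integrin subunit gene Itgb3 fell by 0.82 (adjusted p = 1.73e-05) at 0.60 mg/m3 after 4 weeks, and the other 7 did not pass. None of the 10 passed at 0.15 mg/m3, where Cd44 differed by 0.34 ± 0.13 (adjusted p = 0.191). After 1 week at 0.60 mg/m3, where 32.8% of all genes were called higher and 32.3% lower, 5 of the 10 rose and 3 fell, with the largest changes in Cd44 (1.51 ± 0.13, adjusted p = 2.89e-13), Itgav (1.37 ± 0.14, adjusted p = 2.65e-11), Itgb5 (-0.85 ± 0.10, adjusted p = 9.96e-10) and Itga9 (0.63 ± 0.19, adjusted p = 0.00351). Against the 4-week controls, where 33.3% of all genes were called higher and 16.1% lower, 3 were higher and 4 lower. Cd44 (0.36 ± 0.13, adjusted p = 0.0217) and Itgav (0.47 ± 0.14, adjusted p = 0.00595) were higher there too, and Itgb5 turned to 0.33 ± 0.10 (adjusted p = 0.00752). Itgb1 (-0.39 ± 0.09, adjusted p = 0.000528) and Itgb6 (-0.82 ± 0.17, adjusted p = 6.51e-05), which had risen from the 1-week controls, were lower than the 4-week controls, as were Itgb3 (-0.45 ± 0.14, adjusted p = 0.00673) and Itga8 (-0.93 ± 0.23, adjusted p = 0.00077). Of 24 elastin, elastase inhibitor and metalloproteinase genes, 6 rose and 0 fell after 4 weeks at 0.60 mg/m3: the epithelial protease gene Mmp7 (1.93 ± 0.15, adjusted p = 1.78e-13), the urokinase receptor gene Plaur (1.20 ± 0.22, adjusted p = 7.77e-05), the elastase inhibitor gene Slpi (0.73 ± 0.19, adjusted p = 0.00366) and the protease inhibitor gene Timp1 (0.51 ± 0.16, adjusted p = 0.02) were the largest. After 1 week 6 of the 24 rose and 10 fell from the 1-week controls, and 10 rose and 1 fell from the 4-week controls. Timp1 rose by 2.48 ± 0.16 (adjusted p = 7e-17), and it was called against the 4-week controls as well (1.96 ± 0.16, adjusted p = 2.44e-13). The next largest were falls, in the elastin gene Eln (-1.42 ± 0.29, adjusted p = 3.35e-05), the elastin cross-linking enzyme gene Loxl1 (-1.23 ± 0.13, adjusted p = 1.57e-11) and the metalloproteinase gene Mmp23 (-1.16 ± 0.15, adjusted p = 4.55e-09). Against the 4-week controls Eln differed by -0.28 ± 0.29 (adjusted p = 0.457), while Loxl1 (0.34 ± 0.13, adjusted p = 0.0241) and Mmp23 (0.76 ± 0.15, adjusted p = 4.53e-05) turned and were higher.

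Of 9 fatty acid binding proteins measured beside Fabp5, 0 rose at 0.60 mg/m3 after 4 weeks and Pmp2, the myelin family member, fell by 0.32 (adjusted p = 0.0252). Fabp3, the heart form, differed by -0.22 ± 0.36 (adjusted p = 0.75) there but rose after 4 weeks at 0.04 mg/m3 (1.96 ± 0.36, adjusted p = 0.000241) and 0.08 mg/m3 (1.53 ± 0.36, adjusted p = 0.00477), the concentrations at which the heart and skeletal muscle markers were high. The part of that tissue in the Fabp3 values was not tested. After 1 week Fabp3 (1.18 ± 0.36, adjusted p = 0.00384) and Fabp1 (0.19 ± 0.06, adjusted p = 0.00326), the liver form, rose from the 1-week controls, and 0 of 9 did from the 4-week controls. Among 24 Apoe receptors and sterol-regulated genes, 5 rose and 4 fell at 0.60 mg/m3 after 4 weeks, and beside Apoc1 the largest rises were Soat1 (0.87 ± 0.16, adjusted p = 3.85e-05), which esterifies cholesterol for storage, Scarb1 (0.49 ± 0.14, adjusted p = 0.012), a lipoprotein receptor, and Stard4 (0.49 ± 0.11, adjusted p = 0.00134), a cholesterol carrier. After 1 week 4 rose and 12 fell from the 1-week controls, whereas 8 rose and 5 fell from the 4-week controls. Soat1 was called with both, at 1.59 ± 0.16 (adjusted p = 3.89e-12) from the 1-week controls and 0.43 ± 0.16 (adjusted p = 0.0196) from the 4-week controls. Stard4 rose by 1.13 ± 0.11 (adjusted p = 7.09e-12) from the 1-week controls and differed by 0.22 ± 0.11 (adjusted p = 0.1) from the 4-week controls. The sterol regulator gene Srebf1 (-1.26 ± 0.14, adjusted p = 5.07e-11) and the oxysterol receptor gene Nr1h2 (-1.26 ± 0.14, adjusted p = 2.56e-10) fell from the 1-week controls but were higher than the 4-week controls, by 0.46 ± 0.14 (adjusted p = 0.00414) and 0.69 ± 0.14 (adjusted p = 9.56e-05). Of 12 paired myeloid receptors, the group to which Lilrb4 belongs, 6 rose and 0 fell after 4 weeks at 0.60 mg/m3, led by Clec4a (1.09 ± 0.14, adjusted p = 5.09e-08), Cd300a (0.94 ± 0.14, adjusted p = 2.6e-06), Clec4a3 (0.83 ± 0.14, adjusted p = 1.63e-05) and Clec4a1 (0.62 ± 0.12, adjusted p = 0.000161). Of these 12, 1 rose and 0 fell at 0.15 mg/m3, and after 1 week at 0.60 mg/m3 7 rose and 3 fell from the 1-week controls and 5 rose and 0 fell from the 4-week controls. Of 21 macrophage growth factor and regulator genes, 4 rose and 2 fell at 0.60 mg/m3 after 4 weeks, among them Bhlhe40 (1.35 ± 0.14, adjusted p = 8.14e-10), a transcriptional repressor, Junb (0.83 ± 0.12, adjusted p = 1.1e-06), a subunit of AP-1, Bhlhe41 (0.62 ± 0.09, adjusted p = 2.37e-06), a relative of Bhlhe40, and Csf1, the macrophage growth factor gene, which fell by 0.53 (adjusted p = 0.000857). After 1 week 6 of the 21 rose and 11 fell from the 1-week controls, and 8 rose and 3 fell from the 4-week controls. Bhlhe40 rose with both, by 1.75 ± 0.14 (adjusted p = 3.27e-14) and 1.41 ± 0.14 (adjusted p = 1.05e-10), whereas Junb fell by 0.91 (adjusted p = 8.39e-09) from the 1-week controls and was higher by 1.07 ± 0.12 (adjusted p = 1.29e-09) than the 4-week controls.

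Markers of the cells that could carry the 6 genes moved unevenly. Their counts are to be read beside shares of the whole gene set. With 4 weeks of exposure, limma called 9.47% up and 7.9% down at the top concentration, and 1.92% and 1.58% at 0.15 mg/m3. For the 1-week 0.60 mg/m3 arrays, 32.8% were up and 32.3% down from controls of that time. Set against the 4-week controls instead, 33.3% were up and 16.1% down. Whether any list exceeded its share was not tested. Of 11 alveolar macrophage markers, 2 rose and 2 fell at 0.60 mg/m3 after 4 weeks, namely Cd68 (1.01 ± 0.15, adjusted p = 1.31e-06), a macrophage lysosome protein, and the chitinase gene Chia (1.00 ± 0.08, adjusted p = 3.94e-13) among the higher, and Car4, a carbonic anhydrase, which fell by 0.66 (adjusted p = 0.00925), and Mertk, a receptor for dying cells, which fell by 0.39 (adjusted p = 0.0472). Their mean level was 8.05 to 8.36 in those arrays, against 7.99 to 8.32 in the 4-week controls. Of 17 monocyte and recruited macrophage markers 9 rose and 0 fell, led by Ly6c (1.31 ± 0.15, adjusted p = 8.73e-09), a surface protein of monocytes, Ms4a7 (1.01 ± 0.20, adjusted p = 0.000202), a macrophage membrane protein, Itgam (0.99 ± 0.13, adjusted p = 1.4e-07), the CD11b integrin gene, and Vcan (0.97 ± 0.18, adjusted p = 0.000111), a matrix proteoglycan of monocytes. Their mean level was 8.37 to 8.79 at 0.60 mg/m3, against 7.91 to 8.25 in the 4-week controls, without overlap. In the 0.15 mg/m3 arrays, where Spp1, Mmp12 and Lilrb4 had risen, 1 of these 17 and 1 of the 11 alveolar macrophage markers rose and 0 fell in either list. After 1 week at 0.60 mg/m3, 8 of the 17 rose and 2 fell from the 1-week controls and 8 rose and 0 fell from the 4-week controls, and of the 11, 6 rose and 1 fell from the 1-week controls and 1 rose and 3 fell from the 4-week controls. Of 8 neutrophil markers 4 rose and 1 fell at 0.60 mg/m3 after 4 weeks, and their mean level was 5.98 to 6.29, against 5.55 to 6.18 in the 4-week controls, with overlap. The decoy receptor gene Il1r2 (1.51 ± 0.19, adjusted p = 7.07e-08) and the calcium-binding protein genes S100a9 (1.05 ± 0.21, adjusted p = 0.00029) and S100a8 (0.86 ± 0.26, adjusted p = 0.0145) rose, and the chemokine receptor gene Cxcr1 fell by 1.39 (adjusted p = 2.7e-05). At 0.15 mg/m3 1 of the 8 rose and 0 fell. After 1 week at 0.60 mg/m3 5 rose and 0 fell from the 1-week controls, and 1 rose, Il1r2 (1.36 ± 0.19, adjusted p = 1.66e-07), and 0 fell from the 4-week controls. Of 6 osteoclast and giant cell markers 1 rose and 1 fell. No marker of these lists was at 0, since array intensities have no true zero, and the part of cell numbers in the 6 genes' values was not tested.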

How the data were processed

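Per the submitters' processing notes, Partek software and RMA were used, and the deposited log2 intensities are taken as the authors' RMA values, not changed further here. Software versions, array batches and whether all arrays were normalized together are not given in the sources used. Of 31042 probe sets, 19063 carried 1 gene symbol in the platform annotation, 572 several and 11407 none; the probe set with the highest mean over 50 arrays stood for each of 13438 genes. Array medians were 5.25 to 5.61.

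Differences were tested with limma 3.58.1 (R 4.3.3), 1 mean per group, empirical Bayes, and Benjamini-Hochberg adjustment over all 13438 genes, called under 0.05; the number of arrays limits the precision. The fit was tested on simulated data. Pair correlations used Python 3.11.15. The members and gene lists were chosen with earlier results of these data known. Genes other than the 6 were named as the 3 most alike over group means, and, per list, the 4 largest called changes at 0.60 mg/m3; Trem2, Tyrobp, Plin2, Cd36, Lpl, Sftpc, Ager and Scgb1a1 were named outside that rule, as were members given beside a list count. Alternatives were another normalization, centring, filters, array weights, a within-group component, a replicate block, fewer arrays and other controls. Promoter and position data came from RefSeq (GRCr8); Fabp5 had no promoter entry.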

Additional observations from a re-analysis of the deposited data

Results flagged for a closer look

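Single arrays stood away from the other 4 of their group by Dixon's criterion in 5 of 60 gene and group combinations, where chance gives about 1 in 20. At 4 weeks 3 of the 5 were in the 0.08 mg/m3 group. Replicate 4 had Spp1 at 6.053 while the others were at 5.42 to 5.48, and replicate 1 had Mmp12 at 6.592, the others at 7.31 to 7.53, and Fabp5 at 12.87, the others at 11.31 to 11.46. At 1 week Apoe stood at 11.6 in 0.04 mg/m3 replicate 2, the others at 11.30 to 11.38, and at 10.66 in 0.08 mg/m3 replicate 3, the others at 11.11 to 11.17.

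The change at 4 weeks minus that at 1 week differed from 0 by limma for 3 of the 6 genes. Of all genes, 27.4% were called positive and 29.4% negative at 0.15 mg/m3. These shares were 21.4% and 23% at 0.08 mg/m3, and 7.22% and 4.78% at 0.04 mg/m3. For Gpnmb it was -1.148 at 0.15 mg/m3 and -0.8722 at 0.08 mg/m3. For Apoe it was 1.241 at 0.15 mg/m3, 1.108 at 0.08 mg/m3 and 0.8782 at 0.04 mg/m3. For Mmp12 it was 1.247 at 0.04 mg/m3. At 0.60 mg/m3 every Apoe array lay above its controls at 4 weeks and below its controls at 1 week, a gap of 1.722 between the changes, and this difference was not tested here.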

How the results depend on the processing

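Counts of the 6 genes called, set against the counts reported, moved as follows, and the cause was not tested. For all settings but the 4-week controls, the share of all genes called under the same setting is not given here. Nothing particular to the 6 is read from these counts. With array weights 5 were called at 0.08 mg/m3 after 1 week (3 reported), and after 4 weeks 5 at 0.15 (3), 2 at 0.08 (1) and 2 at 0.04 mg/m3 (1); 4 (2) differed between times at 0.15 mg/m3. With the within-group component as a covariate, and in the 25 arrays of one time, 2 were called at 0.08 and 2 at 0.04 mg/m3 after 4 weeks. With the compared groups only, 3 of 6 were called for 0.15 against 0.08 mg/m3 at 1 week, and after 4 weeks 5 at 0.15, 2 at 0.08 and 3 at 0.04 mg/m3, and 1 (2) differed between times at 0.08 mg/m3.

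Against 4-week controls 3 of 6 were called at 0.60, 3 of 6 at 0.15 and 6 (0) at 0.04 mg/m3 after 1 week. Of all genes, 33.3% were called higher and 16.1% lower at 0.60 mg/m3 there. These shares were 29% and 13.6% at 0.15 mg/m3, and 45.6% and 36% at 0.04 mg/m3. The direction turned for Apoe (0.37) and Lilrb4 (-0.25) at 0.60 mg/m3, Apoe (0.25) and Lilrb4 (-0.55) at 0.15 mg/m3, Apoe (0.90), Gpnmb (-0.45), Fabp5 (-0.20) and Lilrb4 (-1.10) at 0.08 mg/m3, and Apoe (1.24), Gpnmb (-1.23) and Fabp5 (-0.51) at 0.04 mg/m3.

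Leaving out 1 array in turn gave 3 to 5 calls at 0.08 mg/m3 and 0 to 1 at 0.04 mg/m3 after 1 week, 1 to 2 at 0.08 mg/m3 after 4 weeks, 3 to 6 for 0.15 against 0.08 mg/m3 at 1 week, and 1 to 2 for the change at 4 weeks minus that at 1 week at 0.04 mg/m3. In the 20 arrays at 1 week without 0.08 mg/m3, an alternative added after seeing the data, 3 pairs were called (6 in all 50 arrays). Deviations of same-numbered exposed and control arrays had r between -0.486 and 0.385. These values were not tested and cannot settle whether the numbers pair the animals. With a replicate block, 6 were called at 0.60 mg/m3 after 1 week and 3 at 0.15 mg/m3 after 4 weeks. Lilrb4 then joined the difference between times at 0.15 mg/m3 (0.69, limma adjusted p = 0.037, and 0.0252 to 0.292 over its 30 alternatives). How far background signal enters the dim probe sets, such as that of Lilrb4, was not tested.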
